A study of Mus musculus with 24 samples.

Results

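Brain and liver of newborn 20th-generation clones were compared on 8 of the 24 arrays of the series, 4 brain arrays and 4 liver arrays labelled G20. G20 mice were female neonates cloned from cumulus cells, the somatic cells around an oocyte, by nuclear transfer repeated over 20 generations. Every mouse of the series was of the cross (C57BL/6 x DBA2) x 129/Sv, and none carried a named allele or received a named treatment. The 8 arrays were chosen by their labels alone. A further 8 arrays, brain and liver of neonates produced by ICSI (NC, the normal controls made by injecting a sperm into an oocyte), served as the measure of an uncloned tissue difference. The remaining 8, brain and liver of mice cloned from cumulus cells without the 20-generation label (CC), are given beside them where they could be compared. G20 samples differ in their titles only by number, and all bear the same source name, so nothing in the labels says that they came from separate clone lines. All p-values below therefore measure the spread between these samples.

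A differentiated tissue keeps its identity through transcription factors that hold their own genes and the genes of that tissue in an active state, while genes of other lineages stay silent. In nuclear transfer the chromatin of a somatic donor nucleus has to be reset by the oocyte and then laid down anew in every lineage, and in serial cloning this happens again at each generation. Newborn brain consists of neurons, radial glia and the first cells of the oligodendrocyte line, with the choroid plexus as a separate secretory epithelium. Newborn liver holds hepatocytes and, at this age, also blood-forming cells of the erythroid, myeloid and megakaryocyte lines.

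RNA was labelled with Cy3 after linear amplification from 0.5 ug and hybridised to one-colour oligonucleotide arrays, 1 sample per array. The level of a probe is the log2 of the background-subtracted signal minus the array's own 75th percentile of that signal, so a level of 0 equals that percentile. Of 41174 probes, 29606 were well above background on all 4 arrays of G20 brain or all 4 of G20 liver. These represented 20167 genes or unnamed transcripts, taking the brightest probe of each. On G20 arrays 68.1 to 70.6% of brain spots and 60.5 to 62.9% of liver spots were well above background, and the 75th percentile of the signal was 724 to 864.2 in brain and 438.7 to 561.4 in liver. NC brain was close to G20 brain in that percentile, 814.3 to 935.1, but NC liver was dimmer, 276.3 to 340.8. Each group of 4 occupied a slide of its own. Both liver groups of G20 and NC were scanned in one session and both brain groups of G20 and NC in another, so within G20 the tissue, the slide and the session cannot be told apart. All CC arrays came from a later session, in which both tissues were scanned.

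3 arrays stood apart from the others of their group in the lists named here. G20 brain replicate 2 had low levels of choroid plexus genes. It also had the highest Alb, Ahsg, Afp and Fbp1 of the G20 brain arrays. G20 brain replicate 3 had 17 of 18 erythroid genes above background, against 10 or 11 on the other G20 brain arrays and 8 to 10 on NC brain arrays. CC liver replicate 1 had 18 of 20 neuronal genes above background, with a mean level of -2.25, against -4.08 to -4.22 on the other CC liver arrays. The choroid plexus, erythroid and CC values that rest on these arrays are given with and without them. Pairs of G20 brain arrays differed by a root mean square of 0.295 to 0.4 log2 units over genes and pairs of G20 liver arrays by 0.376 to 0.547. No pair was close enough to be the same hybridisation deposited again.

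Brain and liver of G20 mice differed in most of what the arrays measured. By limma with Benjamini-Hochberg adjustment, 6529 of 20167 genes (32.4%) were at least 2-fold higher in brain and 6839 (33.9%) at least 2-fold higher in liver at an adjusted p under 0.05, together 13368 (66.3%). Without the 2-fold requirement 17892 genes (88.7%) passed. The 4 brain arrays and the 4 liver arrays did not overlap for 17313 genes (85.8%). The median difference over all genes was -0.05, near 0, and the root mean square was 3.13 log2 units, against within-group SDs whose medians were 0.155 in brain and 0.184 in liver. At least 8-fold differences numbered 2641 toward brain and 2580 toward liver, and at least 32-fold differences 1175 and 1003. A gene silent in one tissue enters this set only through the other tissue and then has to differ, so the counts over marker lists that follow describe the lists and test nothing. 2491 genes were above background on all 4 brain arrays and on no liver array, and 1144 on all 4 liver arrays and on no brain array.

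**Figure D1:**
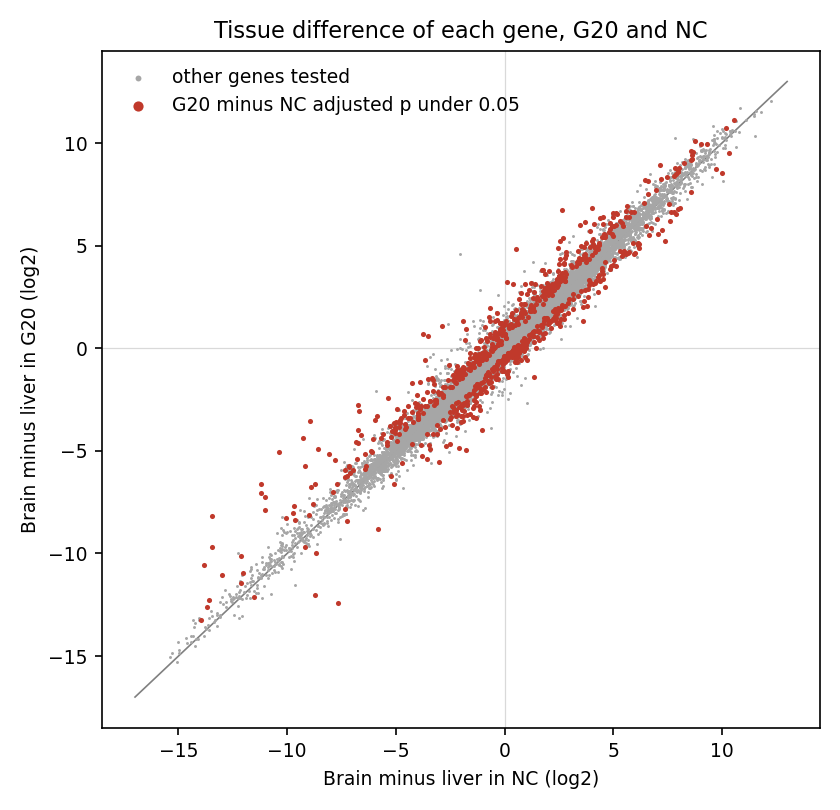
Difference between brain and liver (log2, brain minus liver) for each gene, in NC mice on the horizontal axis and G20 mice on the vertical axis, with the line of equality. Points lie along the line (Pearson r = 0.989 over 20167 genes), and red points are genes whose G20 and NC differences differed at an adjusted p under 0.05.

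The transcription factors that specify neural tissue were high in G20 brain and mostly undetected in G20 liver. Of 33 such factors, 32 passed the filter. 30 were higher in brain, none was higher in liver and 2 were not called, with a median difference of 6.59 against -0.05 over all genes. All 32 were above background on every G20 brain array, and 21 were above it on no G20 liver array. Sox2, a factor of neural stem cells, had levels of 1.49, 1.55, 1.54 and 1.49 in G20 brain, against -5.47, -5.63, -5.98 and -6.72 in G20 liver. The probe for Sox2 lies at chr3:34843400-34843459 (mm8). Its 4 liver values were all below background, so the difference is a bound. Sox2 was at least 157-fold higher in G20 brain than in G20 liver, and at least 150-fold higher in NC brain than in NC liver.

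Myt1l, a zinc finger factor that holds neurons in their fate, read 4.06, 4.05, 3.94 and 3.88 in G20 brain and -6.83, -6.40, -6.58 and -6.69 in G20 liver. That is at least 1110-fold in G20 and at least 963-fold in NC. Factors known from different brain regions were higher in the bulk brain samples, which do not show where a factor was expressed. Emx2 and Tbr1 of the cortex, at least 52.2-fold and 128-fold higher in brain, stood beside Dlx1 and Dlx2 of the ventral forebrain, at least 277-fold and 215-fold, and Otx2 of the forebrain and midbrain, at least 69-fold. The hindbrain and cerebellar factor Zic1 was at least 984-fold higher. Emx1 (0.88) and Cux2 (-0.71) were the 2 factors that missed the call.

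Neuronal genes followed the same pattern. Of 20 genes used by neurons in general, 19 were higher in G20 brain and 1, Syn1, was higher in G20 liver, with a median difference of 8.36. Snap25, a protein of synaptic vesicle fusion, read 3.41, 3.77, 3.6 and 3.48 in G20 brain and -6.78, -6.57, -6.22 and -6.07 in G20 liver, a difference of at least 828-fold in G20 and at least 716-fold in NC. Dcx, a microtubule protein of migrating young neurons, differed by 10.81 and Nefl, a neurofilament subunit, by at least 1110-fold. Syn1, which codes for a synaptic vesicle phosphoprotein, had a difference of -4.22 on the probe used. The other Syn1 probes differed by 6.80 and 0.90, so the probes of this gene disagree, and NC gave -3.44 on the probe used. Probes of 9 list members disagreed in this way, and 352 of 6685 genes with several passing probes had probes called in opposite directions.

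Genes of synapses and transmission, 24 listed and 23 measured, were all 23 higher in G20 brain, with a median of 7.02. Gria2, the AMPA receptor subunit that limits calcium entry, read 5.03, 5.07, 4.98 and 5.15 in G20 brain, against -6.23, -6.32, -5.75 and -5.99 in G20 liver. Its difference was at least 2150-fold in G20 and at least 2080-fold in NC. Both transmitter systems were present. Slc17a6, which loads glutamate into vesicles, was at least 474-fold higher in brain, and Gad1 and Gad2, which make GABA, at least 533-fold and 142-fold. Slc17a7 differed least among the transporters, by 2.89 ± 0.75. Vamp2, a vesicle fusion protein, differed less between the tissues than in NC. Its difference was 3.18 in G20 and 3.95 in NC (difference of differences -0.77 ± 0.16, adjusted p = 0.0197). G20 liver read 0.33, 0.61, 0.45 and 0.45 for Vamp2 and NC liver -0.14, -0.37, 0.17 and -0.07, with no overlap, while the brain arrays of G20 and NC overlapped.

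Glial genes were less uniform. Of 16 genes of radial glia and astrocytes, 13 were higher in G20 brain, 2 were higher in G20 liver and 1 was not called, with a median of 2.60. Fabp7, the fatty acid binding protein of radial glia, differed by 10.19 and the extracellular matrix proteoglycan Ncan by 11.53. The 2 exceptions were Aldh1l1 (-2.31), a folate enzyme that hepatocytes also use, and Ptprz1 (-2.45), whose other probes differed by 10.37, 5.95 and 3.34. Of 11 measured genes of the oligodendrocyte line, 7 were higher in brain, 2 in liver and 2 were not called. The early factors Olig1 (at least 509-fold) and Olig2 (at least 54.8-fold) and the precursor receptor Gpr17 (at least 215-fold) were high in brain. Genes of mature myelin were not: Mbp differed by -0.15 and Cnp by -0.45, Mag and Mobp were higher in liver (-1.67 and at least 45.5-fold), and Mog was above background on no G20 array. The NC differences, all in log2 units, were -0.46, -0.28, -1.32 and -6.27 for Mbp, Cnp, Mag and Mobp.

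**Figure D2:**
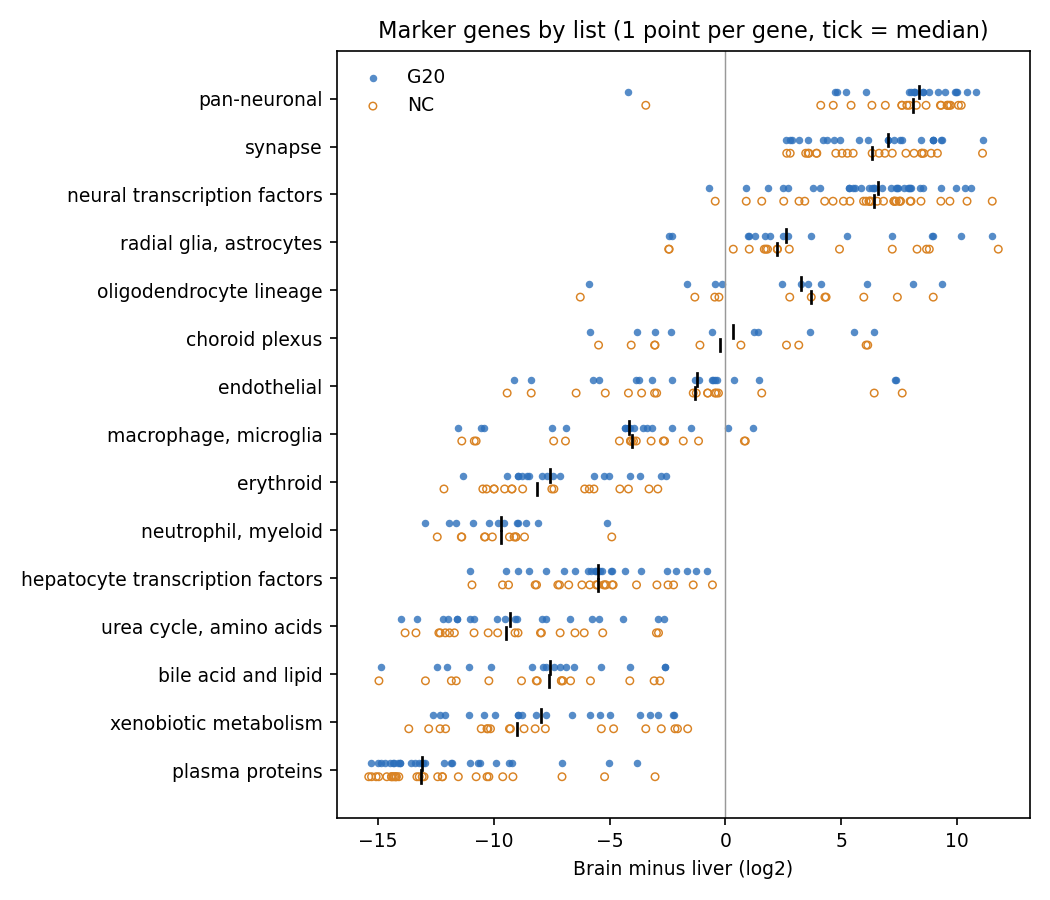
Brain minus liver differences (log2) of the measured genes of each marker list, G20 as filled points above and NC as open points beneath, with a tick at each median. The neuronal lists lie to the right of 0 and the hepatocyte and blood lists to the left, at medians in G20 of 8.36 for pan-neuronal genes and -13.1 for plasma proteins.

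On the liver side the hepatocyte network was present. Of 23 hepatocyte transcription factors, 22 were higher in G20 liver and 1, Prox1 (-0.81), was not called, with a median of -5.51 and all 23 above background on every G20 liver array. Hnf4a, the nuclear receptor at the centre of the hepatocyte network, read -7.20, -7.23, -7.65 and -7.24 in G20 brain and 1.74, 1.58, 1.62 and 1.59 in G20 liver, at least 343-fold in G20 and at least 355-fold in NC. Nr1h4, the bile acid receptor, differed by -9.48 and Cebpa by -6.97. Among these factors 1 difference of differences was called: Creb3l3, a membrane-bound factor of the fasting and acute phase response, differed by -5.80 in G20 and -7.17 in NC. That call was lost in 10 of 26 alternative settings.

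Plasma proteins showed the widest gap between the tissues. All 28 measured were higher in G20 liver, with a median of -13.1 in G20 and -13.17 in NC. Alb, serum albumin, read -4.46, -3.56, -4.35 and -4.38 in G20 brain, against 8.84, 8.76, 8.98 and 8.69 in G20 liver, a difference of -13.00 ± 0.19 at chr5:91547772-91547831 (mm8). The highest of the brain values was that of replicate 2, which was also highest for Ahsg (-2.47) and Afp (-2.87). The summed level of the 28 genes was 7.3 to 21.3 in G20 brain and 8.95 to 9.72 in NC brain. In G20 liver it was 6500 to 7970. Kng1, Ambp, Apoh, Apoa1, Apoa2 and Serpinc1, which code for a kinin precursor, a heme and protease inhibitor precursor, 3 apolipoproteins and antithrombin, were at least 31900-fold, 30000-fold, 24200-fold, 23700-fold, 20500-fold and 19100-fold higher in liver. Among genes above background on all 8 arrays, Fgb, the fibrinogen beta chain, differed most, by -14.38 ± 0.18, followed by the haemoglobin-binding protein Hp (-13.59). The fetal albumin homologue Afp differed by -12.17, against -12.43 in NC.

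Metabolic functions of hepatocytes were liver-high almost throughout. All 20 genes of the urea cycle and amino acid breakdown were higher in G20 liver, with a median of -9.33. Cps1, the entry enzyme of the urea cycle, differed by -12.20, and Otc, the next enzyme, by at least 1600-fold. All 16 genes of bile acid and lipid metabolism were higher in liver. Cyp7a1, the rate-limiting enzyme of bile acid synthesis, read -7.32, -7.55, -7.91 and -7.35 in G20 brain and 2.53, 2.82, 2.66 and 2.33 in G20 liver, at least 665-fold apart. All 20 measured genes of xenobiotic metabolism were higher in liver, with a median of -7.96 in G20 and -9.0 in NC. Of 11 genes of glucose handling, 10 were higher in liver, among them G6pc, the last enzyme of glucose release, at least 3860-fold, and Gys2, liver glycogen synthase, at least 4920-fold.

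**Figure D3:**
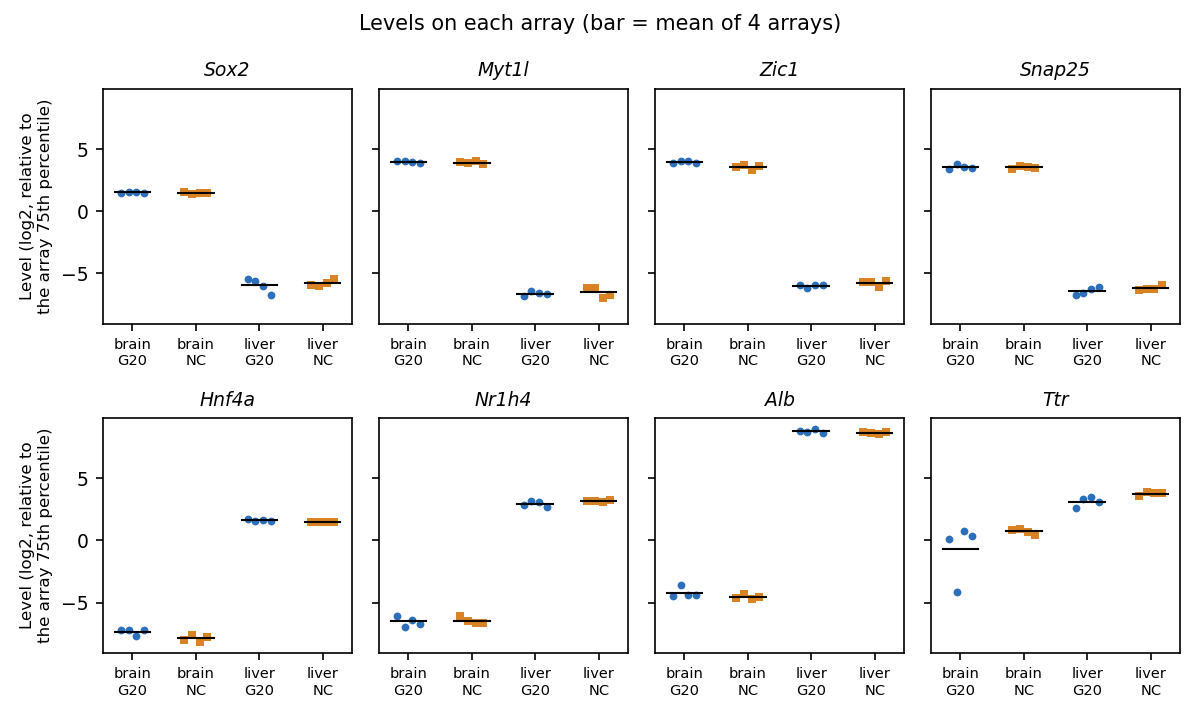
Level of 8 genes on each array (log2 relative to the array's 75th percentile) in brain and liver of G20 and NC. Brain factors and Snap25 are high on all brain arrays and low on all liver arrays, Hnf4a, Nr1h4 and Alb the reverse, and Ttr is low on G20 brain replicate 2 at -4.12.

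Sequence around the start sites was described for brain-high and liver-high genes. RefSeq promoters (GRCm38.p6, 250 bases before to 50 after a start) were found for 1356 of the 2641 genes at least 8-fold higher in brain (1895 promoters), for 1648 of the 2580 at least 8-fold higher in liver (2026 promoters) and for 11710 of all 20167 genes (14950 promoters). Both strands were searched for letters taken from known binding sites, none of which overlaps another in letters. The HNF4A letters CAAAGTCCA were in 4 brain-high promoters (0.211%), 27 liver-high promoters (1.33%) and 76 of all promoters (0.508%). The core of RE1, the site of the neuronal repressor REST, TTCAGCACC, was in 18 brain-high (0.95%), 6 liver-high (0.296%) and 66 of all promoters (0.441%). Among those 6 was a promoter of Syn1, whose probes disagree in direction. TATAAA was in 169 brain-high (8.92%), 306 liver-high (15.1%) and 1280 of all promoters (8.56%). The median ratio of observed to expected CpG was 0.61 in brain-high and 0.34 in liver-high promoters, against 0.71 in all. Each promoter was counted singly, so a gene with several starts, such as Agxt2, could count more than once. These matches are descriptions of letters and were not tested.

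The stretches below are shown because each carries one of these motifs in a gene of the lists or of the named genes. Capitals mark only the motif named for each stretch, with 40 bases on either side or up to the end of the RefSeq window, 5′ to 3′ on the gene's strand, in GRCm38.p6. The first 2 hold HNF4A letters before the drug-metabolising Cyp3a11 and the bile acid enzyme Cyp8b1. The Cyp8b1 stretch also holds TATAAA, left in small letters. The last 2 hold the RE1 core before Dner, a neuronal Notch ligand, and Nlgn1, a synaptic adhesion protein. The motif begins 109, 67, 150 and 153 bases before the start, in that order.
The stretches lie at chr5:145879915-145880003 (-) for Cyp3a11, chr9:121916324-121916412 (-) for Cyp8b1, chr1:84696323-84696411 (-) for Dner, chr3:26154091-26154179 (-) for Nlgn1.
Cyp3a11: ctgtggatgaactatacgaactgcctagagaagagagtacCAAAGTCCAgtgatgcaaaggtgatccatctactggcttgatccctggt
Cyp8b1: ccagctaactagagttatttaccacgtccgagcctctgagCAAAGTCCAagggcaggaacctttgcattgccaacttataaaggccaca
Dner: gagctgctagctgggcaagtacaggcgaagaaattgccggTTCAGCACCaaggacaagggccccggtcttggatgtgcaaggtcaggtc
Nlgn1: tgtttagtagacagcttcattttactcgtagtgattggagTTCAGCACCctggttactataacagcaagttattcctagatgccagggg

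Beside these sequences stand the levels. Cyp3a11 and Cyp8b1 were at least 1840-fold and 119-fold higher in G20 liver. Dner was at least 1520-fold and Nlgn1 at least 49-fold higher in G20 brain.

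The liver of G20 neonates held the blood-forming genes of newborn liver. All 18 measured erythroid genes were higher in G20 liver than in G20 brain, with a median of -7.56, against -8.13 in NC. Slc4a1, the anion exchanger of red cells, read -2.28, -0.93, -0.19 and -1.28 in G20 brain and 7.21, 7.49, 7.47 and 7.48 in G20 liver. NC brain was at -2.25, -3.25, -2.84 and -2.41, so 3 of the 4 G20 brain arrays were above all NC brain arrays. Hemgn, a nuclear protein of erythroid precursors, read -8.22, -6.91, -2.91 and -7.03 in G20 brain, with replicate 3 well above the others. The summed linear level of the 18 genes was 79.8 to 114 in G20 brain (median 103) and 35.3 to 85.3 in NC brain (median 64.3), against 1020 to 1110 in G20 liver and 935 to 1040 in NC liver. Without G20 brain replicate 3 the median difference was -7.76, and all 18 genes were still called toward liver. The median difference of differences was 0.85, and 0.56 without replicate 3. Tal1, a factor of blood progenitors, had a called difference of differences (0.88, and 0.95 without replicate 3). Nfe2, a factor of erythroid and megakaryocyte genes, was called only without replicate 3 (0.59, adjusted p = 0.0354, limma). Whether blood left in the brain samples had a part in this was not tested, and in bulk tissue more cells of a type and more RNA per cell cannot be told apart.

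All 12 genes of neutrophils and myeloid progenitors were higher in G20 liver, with a median of -9.69 against -9.70 in NC. Mpo, myeloperoxidase, differed by -11.66 and the antimicrobial peptide gene Camp by at least 6350-fold. Of 8 megakaryocyte genes 7 were higher in liver. The exception was Vwf (-0.72), which endothelium also makes.

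Cell types found in both organs separated in part by their organ-specific members. Of 18 macrophage genes 16 were higher in G20 liver. Those of Kupffer cells stood out, with Marco at -11.54 and Clec4f and Cd5l at least 925-fold and 1040-fold higher. The microglial receptor P2ry12 was the single brain-high member (1.21), and Cx3cr1 differed by 0.10. The P2ry12 call was lost in 3 of 18 alternative settings. By the median of spots, quantile normalization or normexp correction no macrophage gene was brain-high. Of 18 endothelial genes 10 were higher in liver, 3 in brain and 5 were not called. The transporters of brain vessels Mfsd2a (7.33) and Slco1c1 (at least 134-fold) and the tight junction gene Cldn5 (1.47) were the 3 brain-high members. The sinusoidal genes Clec4g and Oit3 were at least 491-fold and 278-fold higher in liver. Pan-endothelial Pecam1, Kdr and Tek differed by -0.35, -0.52 and -0.44, and none was called. Among 18 genes of stellate cells, fibroblasts and pericytes 4 were higher in brain, 8 in liver and 6 were not called.

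Among the choroid plexus genes 1 array shifted several values. Of 12 listed, 10 were measured in G20, 4 were higher in brain, 4 in liver and 2 were not called, with a median of 0.32. Ttr, which carries thyroid hormone and is made by both choroid plexus and liver, read 0.11, -4.12, 0.77 and 0.38 in G20 brain and 2.58, 3.37, 3.50 and 3.06 in G20 liver. NC brain read 0.86, 0.94, 0.69 and 0.41. Replicate 2 was thus the one low array of 8. The same array was lowest for the water channel Aqp1 (-0.76, -3.63, -0.70 and -0.73), the folate receptor Folr1 (-0.67, -2.92, 0.00 and -0.10) and the potassium channel subunit Kcne2 (-0.55, -3.46, 0.29 and -0.14). Among genes measured on it, Ttr stood lowest relative to the mean of the other 3 arrays (-4.54 log2 units), and Kcne2, Aqp1, Cldn2 and Folr1 were among the 8 lowest. The summed choroid level was 3.72 to 9.69 in G20 brain and 8.43 to 9.53 in NC brain. Without replicate 2, 5 genes were brain-high and 4 liver-high, with a median of 0.51. Folr1 was then higher in brain (1.89, adjusted p = 3.68e-05, limma), Ttr stood at -2.71 in place of -3.84 and Kcne2 at 6.37 in place of 5.54. How much choroid plexus each sample held was not tested.

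**Figure D4:**
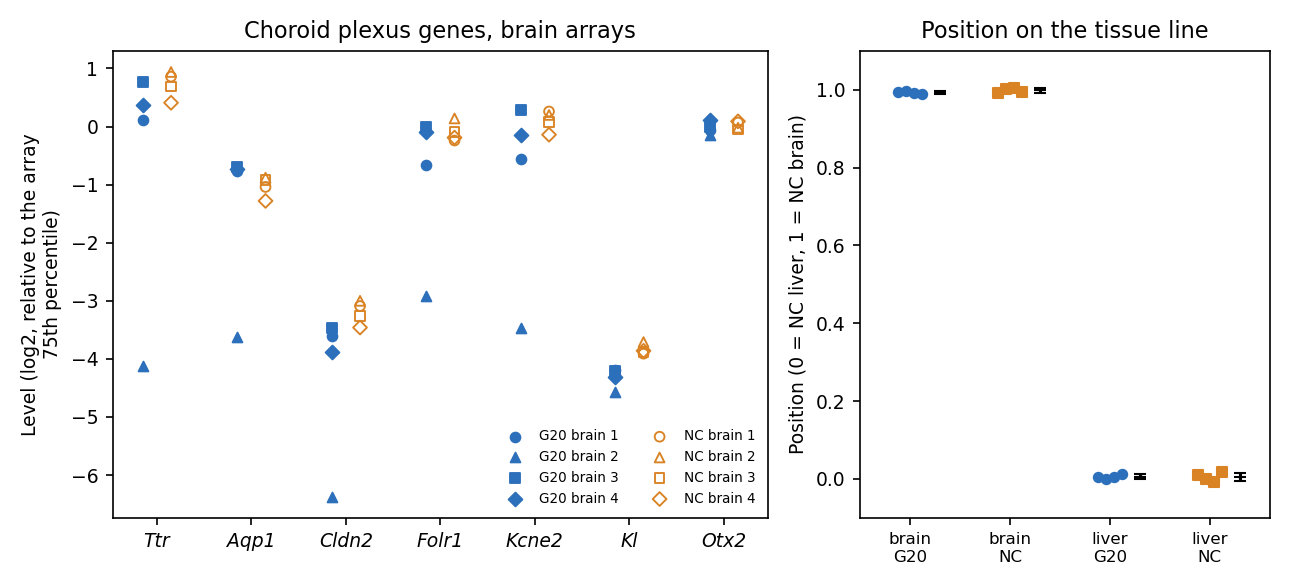
Left, levels (log2) of choroid plexus genes on each G20 and NC brain array. Right, position of each array on the line between mean NC liver (0) and mean NC brain (1). Replicate 2 of G20 brain is low for Ttr at -4.12, yet it lies at 0.997 on the line, among the other brain arrays.

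Genes of other lineages passed the filter in part. Beside the counts below stand the shares over all genes, 32.4% higher in brain and 33.9% higher in liver. Of 14 pluripotency genes 13 were on the array. Nanog, Dppa3 and Tdgf1 were above background on no G20 array, and Pou5f1, Zfp42 and Dppa4 on 1 each. 7 genes passed the filter, 2 of them higher in brain and 5 in liver. Esrrb was at least 20.5-fold higher in brain, and Lin28a at least 6.80-fold higher in liver. The NC differences, in log2 units and not as fold bounds, were 4.10 and -3.51 for them. Of 14 germline genes 4 passed, all higher in brain. Of these 4, Tdrd1 had a called difference of differences (0.97), against 2.35% called above 0 over all genes. That call was lost in 12 of 24 alternative settings. Sycp1, Sycp3, Mael, Tex101, Piwil2, Asz1, Taf7l, Hormad1 and Mov10l1 were above background on no G20 array. Of 20 genes of the donor cell type, cumulus and granulosa, 15 passed, 8 higher in brain, 5 in liver and 2 not called. The liver count lies near the share over all genes. Amh and Lhcgr were above background on no G20 array, and Fshr, Foxl2 and Cyp11a1 on 1. Inhbb, an inhibin and activin subunit, differed by 1.71 in G20 and -0.37 in NC (difference of differences 2.08, adjusted p = 0.041), a call lost in 15 of 26 alternative settings.

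Skeletal muscle genes varied between liver arrays in every group. Their summed level was 3.74 to 20.8 in G20 liver, 2.92 to 15.1 in NC liver and 2.83 to 264 in CC liver (2.83 to 56 without replicate 1), against 1.16 to 1.34 in G20 brain. The part of neighbouring tissue in any liver result was not tested. Of 12 measured muscle genes 7 were higher in G20 liver, 1 in brain and 4 were not called. Tnnc1, the slow muscle troponin C, was among the called differences of differences (-2.49), a call lost in 16 of 26 alternative settings.

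Imprinted genes are read from 1 parental copy and are often misregulated in cloned mammals. Of 24 measured paternally expressed genes 16 were higher in G20 brain, 4 in liver and 4 were not called, with a median of 1.52 (NC 1.80). Their summed level was 220 to 263 in G20 brain and 189 to 197 in NC brain, and 380 to 412 in G20 liver and 300 to 357 in NC liver, with no overlap between G20 and NC in either tissue. Such separation was not confined to imprinted genes. Bile acid and lipid genes in liver (540 to 706 in G20, 730 to 832 in NC) did not overlap either. Nor did macrophage genes in brain (4.67 to 5.35 and 5.78 to 6.26), while pan-neuronal genes in brain did (315 to 350 and 320 to 327). A linear sum rests mostly on its brightest members. Among the 24 paternally expressed genes 2 had a called difference of differences, both above 0, against 2.35% over all genes: Nap1l5, described next, and Inpp5f, a phosphatase gene (0.46, lost in 8 of 26 alternative settings). Ndn and Magel2, neuronal genes of the Prader-Willi region, differed by 5.19 and at least 357-fold. Igf2, a fetal growth factor, read 3.82, 3.26, 3.56 and 3.61 in G20 brain, against 7.63, 7.67, 7.87 and 7.55 in G20 liver, a difference of -4.11 (NC -3.89). H19, the noncoding RNA beside it, differed by -6.27 (NC -6.29). Dlk1, a Notch-like regulator of growth, read 6.49, 6.45, 6.46 and 6.71 in G20 liver and 4.96, 5.12, 5.31 and 6.29 in NC liver. Its tissue difference was -4.26 in G20 and -3.23 in NC, which missed the threshold (adjusted p = 0.0842). Nap1l5, a histone chaperone gene, read 3.50, 3.9, 3.12 and 3.41 in G20 brain and 2.52, 2.72, 2.68 and 2.50 in NC brain, with no overlap. Its difference was 10.11 in G20 and 8.77 in NC (difference of differences 1.34 ± 0.26, adjusted p = 0.0129), a call lost in 2 of 24 alternative settings. Of 25 measured maternally expressed genes 8 were higher in brain, 9 in liver and 8 were not called, with a median of -0.59 (NC -0.19). These counts lie near the shares over all genes, 32.4% and 33.9%. The summed level of the 26 passing in G20 or NC was 158 to 179 in G20 brain and 147 to 155 in NC brain, with no overlap, and 603 to 653 in G20 liver and 530 to 677 in NC liver, with overlap. Kcnq1, a potassium channel gene, was the 1 called difference of differences (0.45, lost in 8 of 26 alternative settings). An array measures both parental copies together, so allelic expression was not analysed here.

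Genes in general use moved with the scaling. Of 81 ribosomal protein genes 77 were higher in G20 liver, with a median of -1.93. With quantile normalization in place of the percentile only 9 were, with a median of -0.29. The 38 proteasome genes gave 15 liver-high and 23 not called, and the immunoproteasome subunits Psmb8 (-5.04) and Psmb9 (-5.59) differed most. Their median was -0.69, and 0.04 after quantile normalization, where 2 were brain-high and 6 liver-high. Of 16 housekeeping genes 10 were higher in liver, 1 in brain and 5 were not called, with a median of -1.59. The median over all genes was -0.05 by the 75th percentile, -0.42 by the median of all spots, -0.59 with no filter on dim probes and 0.22 when the percentile was taken over detected probes. Small differences therefore have no fixed direction, and the share of calls toward brain was 48.8% by the percentile and 40.8% by the median of spots.

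The same contrast in NC gave 6430 genes (31.9%) higher in brain and 6850 (34%) higher in liver over the same 20167 genes, with a root mean square of 3.12. G20 and NC shared no array in this comparison. Of the genes called toward brain in G20, 6036 (92.4%) were called toward brain in NC, which is 93.9% of the NC calls. Of those called toward liver, 6488 (94.9%) were called in NC, 94.7% of the NC calls. The 2 sets of differences were correlated across genes (Pearson r = 0.989, 20167 genes, which are not independent replicates and share the array design). For 19372 genes (96.1%) they lay within 1 log2 unit of each other, and the median absolute gap was 0.21. 3 genes were called in opposite directions. They were Mcpt4, a mast cell protease (-1.42 in G20 and 1.37 in NC), and 2 unnamed probes (1.31 and -1.91, 1.1 and -2.88). Of 2491 genes seen only in G20 brain 2143 were seen only in brain in NC, and of 1144 seen only in G20 liver 749 were seen only in liver in NC. G20 liver had 123 genes above background on all 4 arrays that were on no NC liver array, and 8 the other way round. The corresponding counts in brain were 7 and 5. The G20 liver arrays were also the brighter ones, and the part of brightness in this was not tested.

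A single position per array summarised the contrast. On the line through all genes from mean NC liver at 0 to mean NC brain at 1, each NC array being placed on a line drawn without it, G20 brain arrays lay at 0.993 ± 0.004 and NC brain arrays at 0.998 ± 0.006 (SD, n = 4 each, 20241 genes). Their difference was -0.005 (2-sided exact permutation test, p = 0.171). G20 liver arrays lay at 0.006 ± 0.006 and NC liver arrays at 0.004 ± 0.011, a difference of 0.002 (2-sided exact permutation test, p = 0.8). With 70 splits the smallest p possible was 0.0286. The brain difference reached that p (-0.0132) when the genes were limited to those above background on all 16 arrays. The liver difference over those genes was 0.0108 (exact permutation p = 0.0571), so both tissues lay slightly toward each other there. After quantile normalization the differences were -0.0031 in brain (exact permutation p = 0.514) and 0.0105 in liver (exact permutation p = 0.0857). After normexp background correction the G20 minus NC difference was -0.1303 in brain (exact permutation p = 0.114) and 0.0798 in liver (exact permutation p = 0.0286).

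A smaller set of genes changed its brain to liver contrast between G20 and NC. Over 20368 genes passing in either set of mice, 803 differences of differences (3.94%) had an adjusted p under 0.05 by limma, 479 above 0 (2.35%, more to the brain side in G20) and 324 below 0 (1.59%, more to the liver side in G20). Of these 803, 330 were at least 2-fold, 79 at least 4-fold and 15 at least 16-fold. The larger part of the change lay in liver for 653 genes (81.3%, against 60.3% of all genes) and in brain for 150. The tissue contrast was smaller in G20 for 403 of them and larger for 400. The numbers depended on single arrays. Calls above 0 numbered 315 without G20 brain replicate 1, 318 without G20 brain replicate 2, 314 without NC brain replicate 2, 288 without NC brain replicate 4 and 297 without NC liver replicate 1. Calls below 0 numbered 205 without G20 brain replicate 1, 194, 212 and 188 without NC brain replicates 2, 3 and 4 and 210 without NC liver replicate 1. The split between the directions depended on the scaling. Calls above 0 made up 59.7% by the percentile, 70.5% by the median of spots, 75.8% after normexp background correction and 18.7% in the deposited matrix. Scan sessions are balanced in this comparison, but slides are not, and the slide of a group and its mice cannot be told apart.

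Of the 479 genes more to the brain side in G20, 226 were called toward brain and 152 toward liver in G20. Over all genes tested in G20 the shares were 32.4% toward brain and 33.9% toward liver. Of the 10 largest of these 479, 8 are described, and they do not stand for the whole set. They were genes of hepatocytes, and all 4 G20 liver arrays lay under all 4 NC liver arrays for each of these 8. Sult3a1 and Apoa4 among them passed the filter only through NC liver. Cyp4a12a, a fatty acid hydroxylase of the Cyp4a family, read -2.78, -2.45, -1.92 and -3.29 in G20 liver, against 2.52, 1.87, 2.07 and 2.39 in NC liver, while neither group had a brain array above background. Its difference of differences was 4.91 ± 0.34 (adjusted p = 3.95e-06). Thrsp, a thyroid hormone-responsive gene of fat synthesis, read -4.29, -2.50, -0.12 and -3.88 in G20 liver, against 2.83, 2.27, 2.02 and 2.23 in NC liver (difference of differences 4.46, adjusted p = 0.0167).

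Mbl2, a mannose-binding lectin of innate defence, changed in both tissues. It read -3.69, -3.58, -4.21 and -4.12 in G20 brain and -7.38, -7.34, -5.99 and -7.53 in NC brain, and 2.99, 4.69, 5.04 and 4.37 in G20 liver, against 6.48, 6.60, 6.53 and 6.02 in NC liver. Its difference of differences was 5.30 (adjusted p = 0.000191). Mug1 and Mug2, murinoglobulin protease inhibitors, gave 5.32 and 5.39, the apolipoprotein Apoa4 gave 4.84 and the serpin Serpina3c 4.61. Sult3a1, a sulfotransferase, gave 6.46 ± 1.11 (adjusted p = 0.0061). It was above background on no G20 array and on all 4 NC liver arrays, where it read 2.20, -2.08, 2.12 and -1.39. Apoa4 was above background on 1 G20 liver array and on all 4 NC liver arrays. Both Sult3a1 and Apoa4 passed the filter only through NC liver, the group where they were high. Their differences of differences therefore describe these arrays and test nothing. That of Sult3a1 rests on signal below background in G20. The list of xenobiotic genes held 3 more such calls, Ugt1a1, which conjugates bilirubin (2.08), Cyp2a5 (2.35) and Cyp2c29 (1.06), and 1 in the other direction, Gstp1 (-0.58).

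With the percentile scaling, genes more to the liver side in G20 were fewer. Serpina6, the corticosteroid-binding globulin, read 4.37, 4.90, 5.50 and 6.14 in G20 liver, against -0.86, -0.26, -0.52 and 2.58 in NC liver, with a difference of differences of -4.77 ± 0.82 (adjusted p = 0.00629). Hamp, the iron hormone hepcidin, read 4.30, 4.58, 4.45 and 6.21 in G20 liver and 0.63, 2.16, 0.75 and 1.49 in NC liver (-3.32, adjusted p = 0.00429). All G20 liver arrays were above all NC liver arrays for both genes, and no brain array was above background for either. Serpina7, the thyroxine-binding globulin, gave -3.00. Ntsr1, the neurotensin receptor of brain, gave -2.15, with a brain-high difference of 5.24 in G20 and 7.39 in NC. The lowest 10 also held A2ml1 (-3.16), Mcpt4 (-2.79), Dsg1c (-2.76), Gsta2 (-2.17) and Raet1e (-1.90). After normexp correction Dsg1c, Mcpt4, Gsta2, Ntsr1 and Raet1e turned sign, to 1.13, 1.08, 1.62, 0.85 and 1.74.

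**Figure D5:**
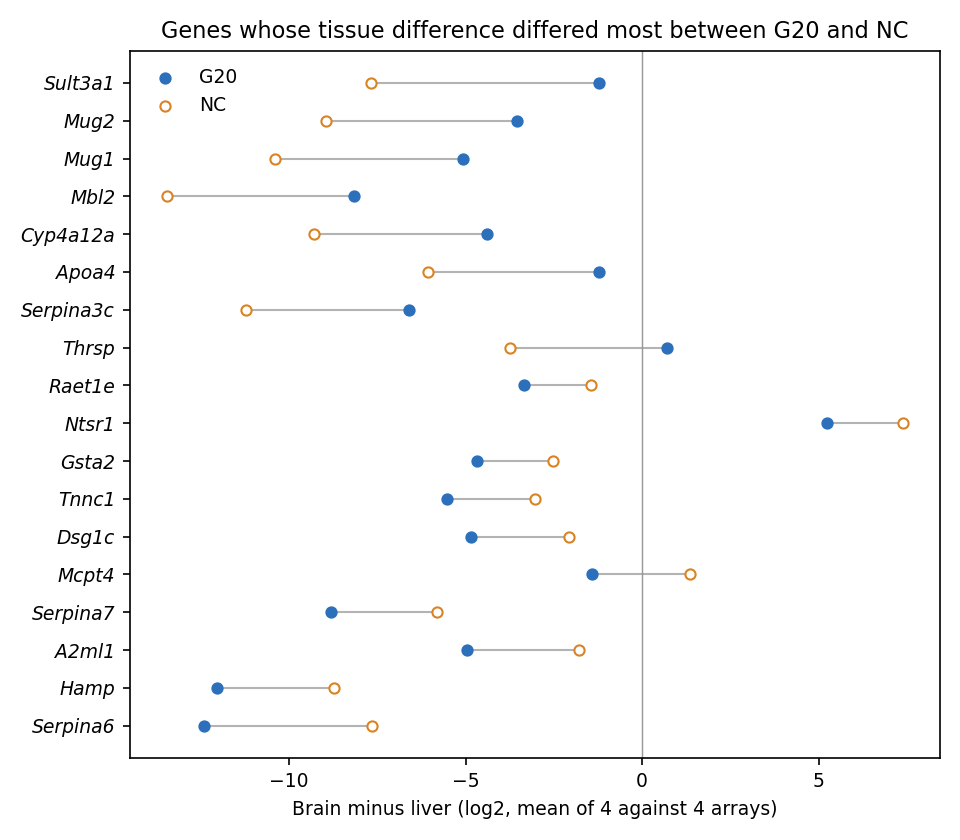
Brain minus liver difference (log2) in G20 and in NC for 18 of the 20 genes with the highest and lowest called differences of differences. Serpina6 lies at -12.41 in G20 against -7.64 in NC. No brain array was above background for it, so these positions rest on brain signal below background.

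Most marker lists had 1 called member or none. Against 2.35% above 0 and 1.59% below 0 over all genes, pan-neuronal genes had 1 of 20 above (Mapt, 0.96), neural factors 2 of 32 above (Zic1, 0.66, and En1, 0.94), synaptic genes 1 of 23 below (Vamp2), plasma proteins 1 of 28 above (Serpina1d, 1.97) and hepatocyte factors 1 of 23 above (Creb3l3). The xenobiotic list had 3 of 20 above and 1 below, as named above. No member was called among 16 radial glia and astrocyte genes, 20 urea cycle and amino acid genes, 16 bile acid and lipid genes, 18 macrophage genes, 81 ribosomal protein genes or 38 proteasome genes. These counts describe the lists only. The Mapt call was lost in 18 of 26 alternative settings, Zic1 in 9 of 24 and En1 in 12 of 24. The stellate, fibroblast and pericyte list had 4 of 18 above: Rgs5, Thy1, Lrat and Mgp. Rgs5, a signalling regulator of pericytes, read 1.74, 1.21, 1.26 and 1.86 in G20 brain and 0.97, 1.55, 1.62 and 1.16 in NC brain, against -2.70, -3.60, -4.55 and -4.06 in G20 liver and -1.09, -0.79, -0.97 and -2.06 in NC liver. The brain arrays overlapped and the liver arrays did not. Its tissue difference was 5.24 in G20 and 2.56 in NC (difference of differences 2.69 ± 0.49, adjusted p = 0.0088). Thy1 (1.52), Lrat (1.44) and Mgp (1.1) lost their calls in 7 of 26, 14 of 24 and 18 of 26 alternative settings.

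CC gave the same contrast on arrays of another session. Over the same 20167 genes 5623 (27.9%) were higher in CC brain and 5558 (27.6%) higher in CC liver, with a root mean square of 2.77. Of the G20 calls, 77.1% toward brain and 74.6% toward liver were also CC calls, and 75.6% of genes differed by less than 1 log2 unit between G20 and CC. Across genes the 2 sets of differences had Pearson r = 0.956. Without CC liver replicate 1 these were 5635 and 5556 genes, a root mean square of 2.81, r = 0.954, 75.3% of genes within 1 log2 unit, and 76.9% of G20 calls toward brain and 74.1% toward liver shared. Differences of differences between G20 and CC numbered 10977 (53.9%), and session and group cannot be told apart there. The medians of the lists in G20, NC and CC were 8.36, 8.09 and 7.46 for pan-neuronal genes, 6.59, 6.42 and 6.26 for neural factors, -5.51, -5.52 and -4.69 for hepatocyte factors and -13.1, -13.17 and -11.83 for plasma proteins. Without CC liver replicate 1 the CC medians were 7.84, 6.26, -4.82 and -11.79 for these lists. The mean level of the plasma protein genes was -4.29 to -3.01 on CC brain arrays and -4.74 to -4.62 on G20 brain arrays. CC brain replicate 1 was the highest CC brain array for Fgb, Ahsg and Afp, and no CC value is given without it. No G20 or NC brain array was above background for Serpina6, Hamp or Cyp4a12a. The differences of these genes given next rest on brain signal below background, so their size is not a measured fold. Serpina6 differed by -12.41 in G20, -7.64 in NC and -6.37 in CC (-6.81 without CC liver replicate 1). Hamp differed by -12.04 in G20, -8.72 in NC and -11.54 in CC (-11.46 without that array), and its G20 minus CC difference of differences was -0.50 (adjusted p = 0.413, limma). Cyp4a12a differed by -4.38 in G20, -9.29 in NC and -6.20 in CC (-6.19 without it), between the values of G20 and NC. As bounds, Cyp4a12a was at least 18.1-fold higher in liver in G20 and at least 556-fold in NC. Mbl2 differed by -8.17 in G20, -13.47 in NC and -10.53 in CC with or without CC liver replicate 1, also between the values of G20 and NC.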

How the data were processed

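Total RNA from brain and liver of the labelled mice was prepared with Trizol and RNeasy columns, amplified and labelled with Cy3, per the labels' protocols. Per the submitters' processing notes the arrays were quantified with Agilent Feature Extraction 9.5.3.1. The deposited intensity of a spot is its processed signal, background-subtracted and detrended within the array with surrogates for very low values, per the file headers, and is not normalized between arrays. The deposited flags (spot well above background, saturated, outlier) and the control type are 0/1 codes of the same software, per the file headers. The authors' deposited value table, also an intensity on a linear scale, has column medians of 353.8 to 391 in G20 brain and 223.6 to 250.5 in G20 liver. The sources used here do not give its scaling or centring, and it leaves values empty, so it served as an alternative.

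Control spots and outlier spots were left out, log2 intensity was reduced by the array's 75th percentile over 43379 spots, spots of a probe were averaged, and the brightest passing probe stood for a gene. A probe passed when well above background on all 4 arrays of either tissue. Symbols came from RefSeq (GRCm38.p6) for 23374 probes matched by accession and from the files for 17800; probe coordinates are the files' own (mm8). limma 3.58.1 in R 4.3.3 (lmFit, eBayes) was fitted across all genes to the 8 arrays of G20, NC or CC alone, and to 16 arrays for the difference of differences, with Benjamini-Hochberg adjustment. A tissue call needed an adjusted p under 0.05 and at least 2-fold, a difference of differences an adjusted p under 0.05. A gene above background on no array of a tissue has only a bound, the bright mean against the higher, on each array, of the probe's own value and the dimmest signal well above background. The script steps were tested on simulated data.

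Named genes are the 10 highest and 10 lowest differences among genes above background on all 8 arrays, the 8 largest bounds per direction, the 10 highest and 10 lowest called differences of differences, and from each list its first 3 members, its 2 highest, its 2 lowest and those opposite to their tissue. A few genes and 1 motif are not reported here. Other members were named after their values were seen. Members, lists and tests were chosen with earlier results of these data known. Alternatives were other scalings, background, filters, the deposited table, all probes, all 24 arrays in one fit, a replicate block and leaving out each array. CC without liver replicate 1 was added after seeing the data. The number of arrays limits the precision. 1 probe had too few values to fit. In CC liver, Alb and Slc4a1 rest on 1 array once outlier spots are left out.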

Additional observations from a re-analysis of the deposited data

Results flagged for a closer look

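In 30 of 429 groups of 4 arrays, 1 array lay far from the other 3 (a gap past Dixon's critical value), which chance gives in about 1 group in 20. The groups were of G20 arrays, with NC arrays included only for position on the tissue line. All 30 were of G20 arrays. 12 of the 30 were G20 brain replicate 2. That array was lowest for Ttr (-4.12), Aqp1 (-3.63), Cldn2 (-6.37), the prostaglandin synthase Ptgds (4.61), Ptx3 (-1.1) and transferrin, Trf (-2.26). It was highest for Alb (-3.56), Ahsg (-2.47), Igfbp1 (-3.49), Myl1 (-4.13), Rpl27a (3.27) and the motor protein gene Kif5a (5.45). The choroid plexus values without it stand in the report. G20 brain replicate 3 was lowest for Sox9 (1.07) and Psmd13 (0.55). G20 brain replicate 4 was lowest for Rps27l (2.01) and highest for the summed neutrophil and myeloid genes (log2 -0.12).

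Among G20 liver arrays, replicate 4 was lowest for urate oxidase, Uox (6.79), Serpina3c (-2.05) and the summed urea cycle and amino acid genes (log2 9.24). It was highest for Dlk1 (6.71), Hamp (6.21) and the embryonic globin Hbb-bh1 (-1.16). Replicate 3 was highest for Krt5 (-1.40), Serpinc1 (7.66), Grin1 (-4.54) and the summed skin and cartilage genes (log2 0.96). Replicate 1 was highest for Gapdh (-0.70) and Kdr (1.94) and lowest for Pf4 (5.44), and replicate 2 was lowest for Psmb8 (1.63).

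The brain minus liver contrast differed between G20 and NC, by limma's test of the difference of differences, for 43 genes named in the report or held by the lists. More to the brain side in G20 were Sult3a1 (6.46), Mug2 (5.39), Mug1 (5.32), Mbl2 (5.30), Cyp4a12a (4.91), Apoa4 (4.84), Serpina3c (4.61) and Thrsp (4.46). Sult3a1 was above background on no G20 array, and Sult3a1 and Apoa4 passed the filter only through NC liver. With smaller values the same direction held for Rgs5 (2.69), Cyp2a5 (2.35), Ugt1a1 and Inhbb (2.08 each), Serpina1d (1.97), Thy1 (1.52), Lrat (1.44), Creb3l3 (1.37), Nap1l5 (1.34), Mgp (1.1) and Cyp2c29 (1.06). Under 1 log2 unit it held for Tdrd1 (0.97), Mapt (0.96), En1 (0.94), Tal1 (0.88), Emcn (0.68), Zic1 (0.66), Cftr (0.62), Ctnna2 (0.60), Hprt (0.55), Inpp5f (0.46) and Kcnq1 (0.45). More to the liver side in G20 were Serpina6 (-4.77), Hamp (-3.32), A2ml1 (-3.16), Serpina7 (-3.00), Mcpt4 (-2.79), Dsg1c (-2.76), Tnnc1 (-2.49), Gsta2 (-2.17), Ntsr1 (-2.15), Raet1e (-1.90), Vamp2 (-0.77), Krt14 (-0.65) and Gstp1 (-0.58). For 9 of the 10 lowest, all but Mcpt4, every G20 liver array lay above every NC liver array.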

How the results depend on the processing

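Of 204 genes named from the tissue contrast in G20, 150 kept direction and call in every alternative, and of 42 named from the difference of differences 15 did. Leaving out each array gave 6496 to 6560 genes higher in brain and 6813 to 6885 higher in liver. With every passing probe tested 9919 of 29606 were higher in brain, with only genes above background on every array 3391 of 14816, and 4302 of 15769 were higher in liver in the values the authors deposited. In the last 2 the share of genes called was lower too, and the cause was not tested. For the difference of differences, calls above 0 and below 0 were 224 and 973 in the deposited table (15148 tested), 9249 and 2954 after normexp correction, and 286 above 0 among 14157 genes above background on all arrays. They ranged from 288 to 575 and from 188 to 427 when single arrays were left out. The cause was not tested. G20 liver arrays were brighter than NC liver arrays (75th percentiles 438.7 to 561.4 and 276.3 to 340.8).

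Same-numbered brain and liver arrays of G20 deviated together with correlations of 0.15, 0.016, 0.071 and 0.056, so the numbers were not taken to pair samples. With the replicate number as a block, differences of differences called were 245 above 0 and 144 below 0, and not every array correlated best with its own number.

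The G20 minus NC difference in brain position on the tissue line was -0.0132 (exact p = 0.0286) for genes above background on all 16 arrays, -0.1303 (exact p = 0.114) after normexp correction and -0.0067 to -0.0036 without single arrays. In liver position the G20 minus NC difference was 0.0108 (exact permutation p = 0.0571) for genes above background on all 16 arrays. It was 0.0798 (exact p = 0.0286) after normexp correction. Without single arrays it ranged from -0.0009 to 0.0057. It was -0.0007 without G20 liver replicate 4, -0.0001 without NC liver replicate 2 and -0.0009 without NC liver replicate 3.

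Single genes turned sign. Tissue differences became 0.12 (detected-probe percentile), 0.26 (deposited table), 0.29 (quantile) and 0.03 (without G20 brain replicate 2; -0.3 to 0.03 without single arrays) for Col1a1, -0.11 for Col1a2 (median of spots), -0.27 and -0.11 for Cx3cr1 (median of spots, quantile), 0.22 for Myh3 (without G20 liver replicate 4; -1.29 to 0.22 without single arrays), 0.06 for Pecam1 (deposited table), 0.75, 0.03 and 0.09 for Plagl1, Psma2 and Psma3 (quantile), 0.02 and 0.23 for Rpl27a (deposited table, quantile) and -0.03 for Ywhaz (median of spots). After normexp correction the differences of differences of Dsg1c, Gsta2, Hprt, Krt14, Mcpt4, Ntsr1 and Raet1e became 1.13, 1.62, -0.08, 1.83, 1.08, 0.85 and 1.74. The cause was not tested. Probes not above background limit what dim genes can show to a bound.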
